A study of Mus musculus and Acomys cahirinus with 25 samples.

Results

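Adipocyte transcripts were followed in the dermis of healing skin with 10 genes chosen by symbol: Pparg, Fabp4, Lpl, Plin1, Plin4, Cidec, Adipoq, Lep, Cfd and Retn. All 10 symbols were found among the 24500 gene rows of each of 25 RNA-seq libraries, of which 15 were dermis and 10 were epidermis. The laboratory mouse dermis libraries came from full-thickness back wounds of 4-week-old mice at post wound day (PWD) 14. C57BL/6J was the study's main strain. The Twist1 mutants came from a cross of 2 lines, and the background of these mice and their controls was not stated. The wound center gave 5 libraries and the wound margin 2 in wild type. The wound center gave 2 more in mice in which K14-Cre, a driver active in keratinocytes, deleted Twist1 (here KO, whose wild-type controls were Twist1+/+). The margin was the wound tissue left after the center had been punched out. The spiny mouse (Acomys cahirinus, 8 weeks old) dermis libraries came from whole wounds at PWD14 (1), PWD21 (2) and PWD28 (1) and from unwounded skin at PWD0 (2). In both species the dermis was peeled from the epidermis by hand, for the spiny mouse after trypsin. The study calls its RNA-seq replicates independent, but nothing in the labels ties a library to an animal, and the p-values measure the spread between libraries. The study's own list of libraries gives spiny mouse wound days that differ slightly from those of the labels, which are used here.

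White adipocytes of the skin lie below the reticular dermis and around hair follicles, and store triglyceride in a single large droplet. Their identity is set by the nuclear receptor PPARγ together with C/EBP factors, which switch on genes for taking up fatty acids, coating the droplet and secreting hormones. In laboratory mice, large back wounds that form new hair follicles are known to regain adipocytes later in healing, from cells of the wound.

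The genes were read by role. Pparg encodes the master regulator. Fabp4 carries fatty acids within the cell and Lpl, a secreted lipase, releases them from lipoproteins. Plin1 and Plin4 coat lipid droplets, and Cidec fuses droplets into one. Adipoq (adiponectin), Lep (leptin), Cfd (adipsin, a complement protease) and Retn (resistin) are secreted. Pparg, Fabp4 and Lpl are also made by other cells, such as macrophages, endothelial cells, sebocytes and muscle. The other 7 genes are therefore taken as the more restricted markers of mature adipocytes. Plin4 and Cidec were nonetheless read in spiny mouse epidermis as well.

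Promoter sequence is shown for 3 genes that the results turn on, the 250 bases before a start site in RefSeq on GRCm38.p6, plus strand. RefSeq's table held a promoter for 8 of the 10 genes (11 windows of 300 bases, 50 of them after the start) and none for Fabp4 or Lpl. Capitals mark letters that match a searched motif. The first is Lep at chr6:29059971-29060220, the next is 1 of the Pparg start sites at chr6:115362099-115362348, and the last is Adipoq at chr16:23146286-23146535, which held no searched motif.
Lep: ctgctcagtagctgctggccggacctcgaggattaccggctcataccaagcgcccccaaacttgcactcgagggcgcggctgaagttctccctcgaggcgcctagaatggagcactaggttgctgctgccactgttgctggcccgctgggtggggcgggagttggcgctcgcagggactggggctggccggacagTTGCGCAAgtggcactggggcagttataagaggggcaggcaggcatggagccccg
Pparg: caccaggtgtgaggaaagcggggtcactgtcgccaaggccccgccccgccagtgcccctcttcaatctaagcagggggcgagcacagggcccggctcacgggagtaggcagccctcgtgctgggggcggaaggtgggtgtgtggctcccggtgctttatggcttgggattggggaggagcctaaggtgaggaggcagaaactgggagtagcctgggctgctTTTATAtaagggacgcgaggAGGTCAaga
Adipoq: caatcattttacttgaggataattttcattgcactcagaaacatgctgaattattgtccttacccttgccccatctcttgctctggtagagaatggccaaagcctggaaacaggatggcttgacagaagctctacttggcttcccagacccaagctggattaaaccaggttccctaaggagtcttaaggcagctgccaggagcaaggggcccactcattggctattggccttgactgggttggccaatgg

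On both strands, the palindromic C/EBP site TTGCGCAA stood in 1 of the 11 adipocyte gene windows, that of Lep, 55 bases before its start, and in 0.183% of all 32851 windows. The nuclear receptor core site AGGTCA stood in 2 of the 11 windows, both of Pparg, and in 16.3% of all windows. The element bound by PPARγ with RXR, a direct repeat of that core site with 1 base between, was in none of the 11 and in 0.0396% of all. TATAAA stood in 1 of the 11 (read as TTTATA, 29 bases before the Pparg start) and in 13.6% of all, and the E-box CACGTG in none of the 11 and in 7.15% of all.

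The spiny mouse dermis libraries held between 5669760 and 34751956 reads on genes and the mouse dermis libraries between 19413261 and 28615931. Levels are CPM, counts scaled to a common library size by the reads on genes, and 3 counts, taken as the detection floor, were worth 0.0863 to 0.529 CPM in spiny mouse dermis and 0.105 to 0.155 CPM in mouse dermis. Such floors cover counting error only. Spiny mouse reads had been aligned to the mouse genome, where 27.0% to 52.9% of them fell on genes against 57.7% to 69.8% for mouse dermis, so levels are not compared between the species. Libraries of a group differed by more than counting noise (chi-square per degree of freedom from 28.3 to 375). In bulk tissue, fewer adipocytes and less RNA per adipocyte cannot be told apart.

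In unwounded spiny mouse dermis all 10 genes were read above the floor in both libraries. Per kilobase of the gene's mouse transcript, Fabp4 had the highest level, 899 ± 41.1 CPM per kb (SD, n = 2, as for the values that follow), and Cfd the next, 191 ± 2.55 CPM per kb. Pparg (40.1 ± 4.72 CPM per kb) and Cidec (38.9 ± 0.903) overlapped. Lpl (27.7 ± 9.80), Plin1 (17.5 ± 6.92) and Adipoq (16.0 ± 0.401) came next, each overlapping its neighbour. Lep (7.52 and 8.48 CPM per kb in the 2 libraries), Retn (2.92 ± 0.826) and Plin4 (1.66 ± 0.357 CPM per kb) closed the order without overlap. How well spiny mouse reads of each gene align to the mouse genome was not tested, and the order rests on it.

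After wounding, all 10 genes were lower in each of the 4 wounded dermis libraries than in either unwounded library. At PWD14 the level of the 10 genes ranged from 0% to 14.7% of the PWD0 mean, with a median of 1.23%. The median was 6.07% at PWD21 (highest 33.9%, Pparg) and 3.87% at PWD28 (highest 38.2%, again Pparg). Every wound day is compared with the same 2 unwounded libraries, and the differences between PWD14, PWD21 and PWD28 were not tested.

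**Figure D1:**
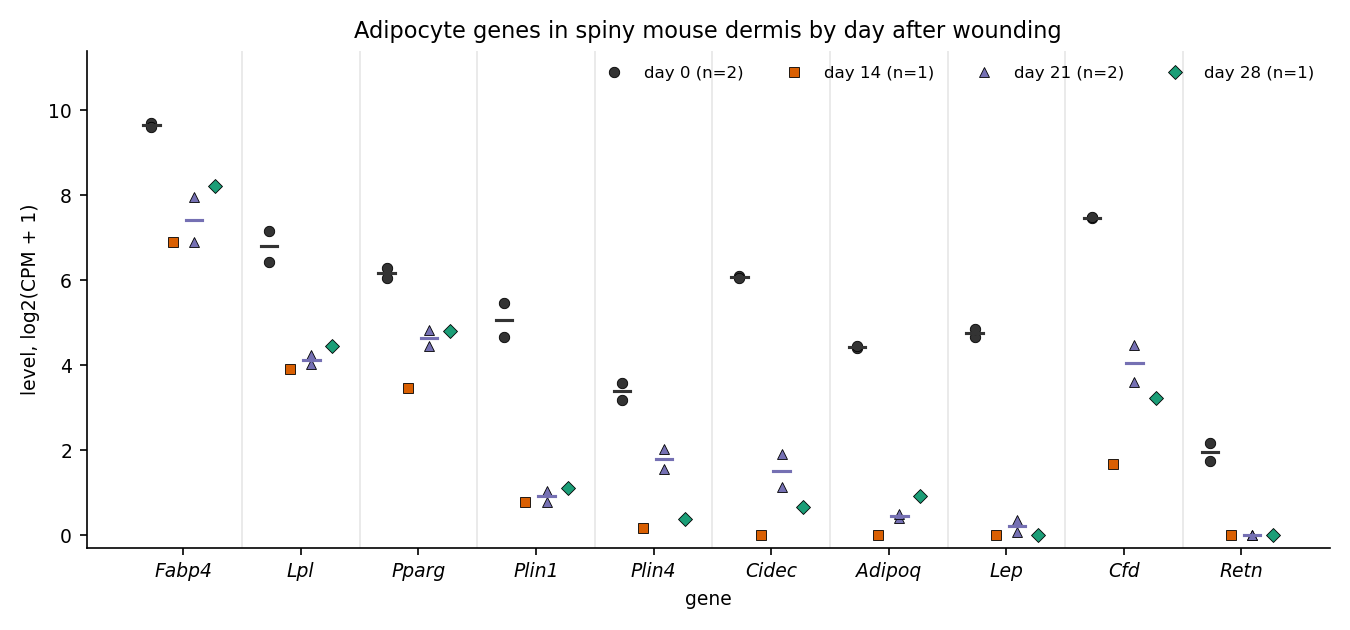
Level of each of the 10 genes in the 6 spiny mouse dermis libraries, as log2(CPM + 1); each point is 1 library and the short bars are means of log2 values where a day had 2 libraries. The black PWD0 points lie above every coloured point of the same gene, and 4 genes (Cidec, Adipoq, Lep and Retn) lie at 0 on PWD14.

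Pparg read 64.9 and 76.7 CPM at PWD0, 9.95 CPM at PWD14, 27.3 and 20.7 CPM at PWD21 and 27.0 CPM at PWD28. It was thus at its lowest in the PWD14 library and remained below PWD0 at the last day. By edgeR's quasi-likelihood test (adjusted p as FDR, over all tested genes, here and below) Pparg changed by a log2 fold of -2.60 ± 0.40 (SE) at PWD14 (FDR 0.00403), -1.67 ± 0.29 at PWD21 (FDR 0.00482) and -1.63 ± 0.38 at PWD28 (FDR 0.0454). The PWD21 call was lost without PWD21 replicate 2 (FDR 0.0587), and the PWD28 call without either PWD21 library, which helps to set the spread (FDR 0.0904 and 0.0922).

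For the fatty acid genes the fall was of similar size and none reached 0. Fabp4 read 831 and 779 CPM at PWD0, 118 CPM at PWD14, 246 and 118 CPM at PWD21, and 297 CPM at PWD28. Lpl read 85.4 and 142 CPM at PWD0, 14.1 CPM at PWD14, 18.0 and 15.2 CPM at PWD21, and 21.0 CPM at PWD28. Both stayed below the unwounded range in each wounded library. The log2 fold change of Lpl was -2.76 ± 0.42, -2.86 ± 0.31 and -2.67 ± 0.41 on the 3 days in order (FDR 0.00376, 0.000655 and 0.0127). That of Fabp4 was -2.55 ± 0.52 at PWD14 and -2.27 ± 0.41 at PWD21 (FDR 0.0131 and 0.00576), and the PWD21 call was lost without PWD21 replicate 2 (FDR 0.0834). At PWD28 its log2 fold change of -1.70 ± 0.50 did not pass (FDR 0.0892), whereas DESeq2 gave an FDR of 0.00353 for it. In PWD14 epidermis Fabp4 read 6302 and 5159 CPM. The keratinocyte marker Krt5 read 314 CPM in PWD14 dermis and 9621 and 9722 CPM in PWD14 epidermis. The part of epidermal RNA in the dermal Fabp4 level was not tested.

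Plin1 and Cidec were nearly lost, and Plin4 less so at PWD21. Plin1 read 24.2 and 42.9 CPM at PWD0 against 0.706 CPM at PWD14, 1.05 and 0.719 CPM at PWD21 and 1.17 CPM at PWD28. Its log2 fold changes were close on the 3 days, -5.30 ± 0.65, -5.33 ± 0.44 and -5.05 ± 0.64 (FDR 0.00163, 0.000289 and 0.00616). Cidec read 67.7 and 65.5 CPM at PWD0, had no read at PWD14, and read 1.19 and 2.76 CPM at PWD21 and 0.585 CPM (6 counts) at PWD28. Against the floor of 3 counts in the library, Cidec was at least 377-fold lower at PWD14 (FDR 0.000611), and its log2 fold change was -5.16 ± 0.48 at PWD21 (FDR 0.000400) and -7.07 ± 0.79 at PWD28 (FDR 0.00390). Plin4 took another course. It read 8.11 and 11.02 CPM at PWD0, 0.118 CPM (2 counts) at PWD14, 1.96 and 3.08 CPM at PWD21, and 0.293 CPM (3 counts) at PWD28. The PWD21 libraries were thus the highest of the wounded ones, at 26.3% of the PWD0 mean. At PWD14 the ratio of PWD0 to wound was 81.3 with a 95% Poisson counting interval of 22.5 to 671 (FDR 0.00411), and at PWD28 it was 32.7, 11.2 to 159 (FDR 0.0160). At PWD21 Plin4 had a log2 fold change of -2.003 ± 0.46 (FDR 0.0158), a call lost without either PWD21 library (FDR 0.133 and 0.0672).

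The hormone genes were at or near 0 in every wounded library except for Cfd. Adipoq read 20.3 and 21.0 CPM at PWD0, had no read among the 16985720 of PWD14, and read 0.319 and 0.403 CPM at PWD21 and 0.878 CPM (9 counts) at PWD28. It was at least 117-fold lower at PWD14 (FDR 0.000804), and its log2 fold change was -5.90 ± 0.47 at PWD21 (FDR 0.000276) and -4.79 ± 0.67 at PWD28 (FDR 0.00858). Lep read 24.5 and 27.6 CPM at PWD0, had no read at PWD14 or PWD28, and had 1 and 10 counts (0.0456 and 0.288 CPM) at PWD21. Lep was at least 148-fold lower at PWD14 and at least 89.1-fold lower at PWD28 (FDR 0.00173 and 0.00616), and its log2 fold change at PWD21 was -7.20 ± 0.66 (FDR 0.000392). The laboratory mouse Lep promoter is the one of the 3 shown above that holds the C/EBP palindrome. No spiny mouse promoter was examined, and the factor's binding was not measured.

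Of these 4 genes Cfd kept the highest level in each wounded library. It read 175 and 178 CPM at PWD0, 2.18 CPM at PWD14, 21.1 and 11.3 CPM at PWD21, and 8.29 CPM at PWD28. Its lowest wounded level was thus at PWD14, as for Pparg, and its highest at PWD21. The log2 fold changes were -6.11 ± 0.57, -3.57 ± 0.37 and -4.66 ± 0.52 (FDR 0.000611, 0.000571 and 0.00390). Retn had only 20 and 16 counts at PWD0 (3.53 and 2.35 CPM) and none in any wounded library. That put it at least 16.6-fold lower at PWD14 (FDR 0.0335), at least 21.5-fold lower at PWD21 (FDR 0.00326), and at least 10.05-fold lower at PWD28, where it did not pass (FDR 0.0746). The Retn calls at PWD14 and PWD21 were lost without either PWD21 library (FDR 0.0512 to 0.0878), and DESeq2 did not call Retn at PWD14 (FDR 0.376).

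Counted together, 10 of the 10 genes were lower with an FDR under 0.05 at PWD14, where 10.5% of all 15344 tested genes were, and 10 of 10 at PWD21, where 14.2% of 14481 were. At PWD28, 8 of 10 were, against 2.72% of 15344 genes. Lep, with at most 10 counts after wounding, and Retn, with none, entered the tests only through their unwounded level, as did Adipoq at PWD21. These genes could only come out lower, and nothing is read from their part in the counts of this paragraph. The median log2 fold change of the 10 genes, with groups at 0 set to the floor, was -5.67, -4.00 and -4.73 for the 3 days in order, beside -0.05, 0.03 and 0.01 over all tested genes. Lower in every wounded library than in every unwounded one were 10 of 10 at each day, beside 45.9%, 29.5% and 29.2% of all tested genes. PWD14 and PWD28 had 1 library each, whose spread was taken to be like that of the other days. Without PWD21 replicate 2, 6 of the 10 were called at PWD21 (1311 genes in all, against 3792 with it), and without replicate 1, 8 were.

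**Figure D2:**
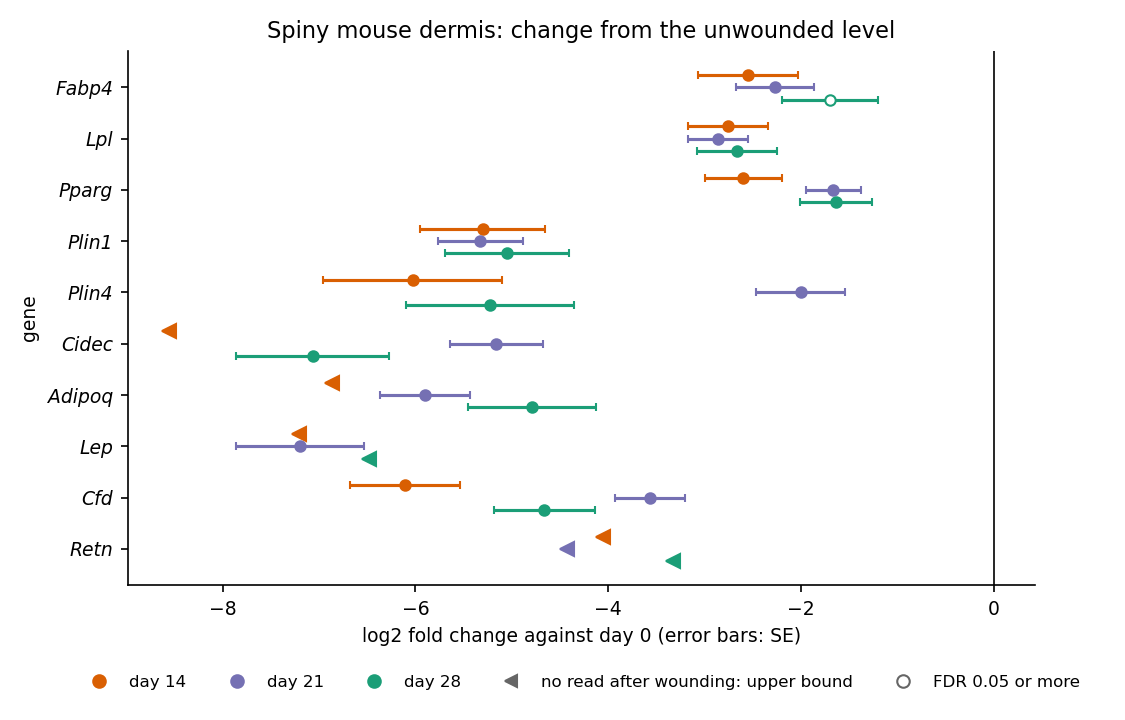
Log2 fold change of each gene against PWD0 in spiny mouse dermis at PWD14, PWD21 and PWD28, with bars for the SE from edgeR's fit; arrows mark the bound for genes with no read at that day and the open circle an FDR of 0.05 or more. Pparg, Fabp4 and Lpl lie between -1.63 and -2.86 at all 3 days, and the other 7 genes lie further to the left apart from Plin4 at PWD21.

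Other genes of the adipocyte pathways were read from 11 lists. Among 13 transcription factors of fat differentiation, 3 were lower and 1 higher at PWD14, 4 lower and none higher at PWD21, and none passed at PWD28. These counts and all that follow are from edgeR's quasi-likelihood test at an FDR under 0.05. Of all tested genes 7.95%, 12.03% and 2.58% were higher at the 3 days, and 10.5%, 14.2% and 2.72% lower. Klf15, which promotes adipogenesis, averaged 29.2 CPM at PWD0 and 0.353 and 1.83 CPM at PWD14 and PWD21, and Cebpd averaged 67.6 CPM and 26.2 CPM at PWD0 and PWD21 (FDR 0.00261 for Klf15 and 0.00686 for Cebpd at PWD21). The riser at PWD14 was Zfp423, which commits cells to the fat lineage (14.6 to 36.1 CPM, log2 1.57 ± 0.44, FDR 0.0401). Cebpa, the partner of Pparg, averaged 55.0 CPM at PWD0 and 22.4, 64.7 and 126 CPM on the wound days and passed on none (FDR 0.102, 0.738 and 0.165). Both were named after their values were seen, as were Rxrg and Klf5, the others lower at PWD14 (log2 -2.12 and -2.90), and Cebpb and Mlxipl at PWD21 (log2 -1.11 and -3.27). Of 5 genes that hold adipogenesis back, 2 were lower at PWD14 and PWD21 and none at PWD28. They were Gata2 (134 CPM at PWD0, 4.06 at PWD14, 19.2 at PWD21) and Gata3 (112, 13.1 and 22.3 CPM).

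Lipid storage genes beyond the 10 were lower in part. Of the other droplet genes, 4 of 12 tested were lower at PWD14, 6 of 10 at PWD21 and 4 of 12 at PWD28, with Cidea, a relative of Cidec that sebocytes also use, going from 253 CPM at PWD0 to 1.30, 14.7 and 13.6 CPM. Of 9 genes of triglyceride synthesis, 5, 4 and 2 were lower on the 3 days. Gpd1 and Pck1, which supply the glycerol backbone, went from 70.9 to 4.11 CPM and from 16.7 to 0.109 CPM at PWD21. Of 8 lipolysis genes, 4, 6 and 1 were lower, among them the monoglyceride lipase gene Mgll (341 CPM at PWD0, 84.7 CPM at PWD21, FDR 0.00482). Of 8 genes for fatty acid uptake and handling, 4, 3 and 2 were lower, with Acsl1, which activates fatty acids, at 204 CPM before and 24.1 CPM at PWD21 (FDR 0.000404). Of 10 fatty acid synthesis genes, 7, 5 and 2 were lower, and Thrsp, a lipogenic gene, went from 30.2 CPM to 0, 0.513 and 0.390 CPM. No gene of these 5 lists was higher with an FDR under 0.05 at any day.

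Among signalling, brown fat and progenitor genes, at most 1 of a list was higher on a day, and nothing about a list is read from it. Of all tested genes 7.95%, 12.03% and 2.58% were higher on the 3 days, and 10.5%, 14.2% and 2.72% lower. Of 9 insulin and glucose genes, 4 were lower and 1 higher at PWD14, 2 lower and 1 higher at PWD21, and none passed at PWD28. The insulin receptor substrate gene Irs1 was the higher one at both (25.1 CPM at PWD0, 50.2 and 68.5 CPM, FDR 0.0380 and 0.0123). Of 8 other adipokines, 5 were lower at PWD14 and PWD21 and 2 at PWD28. Rarres2 (chemerin) averaged 565, 22.7 and 31.1 CPM at PWD0, PWD21 and PWD28, and Angptl8, which lowers lipase activity, 31.9, 0.174 and 0.390 CPM. In each of the 3 comparisons 1 adipokine was higher, which was Apln, a peptide also made by vessels. It averaged 1.93 CPM at PWD0 and 60.6, 28.7 and 17.8 CPM on the wound days (log2 5.19 ± 0.59, 3.78 ± 0.56 and 2.95 ± 0.58, FDR 0.00130, 0.00261 and 0.0271). Of the brown and beige fat genes, 2 of 9 were lower and 1 higher at PWD14, 3 of 8 lower and 1 higher at PWD21, and 1 of 9 lower and 1 higher at PWD28. Tmem26 was the one that rose on each day, from 6.64 CPM to 63.4, 92.1 and 34.1 CPM, and Cox7a1 the one that fell on each day, from 22.6 CPM to 3.59, 2.12 and 2.24 CPM.

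Of the progenitor markers tested, 5 of 9 were lower at PWD14, 4 of 8 at PWD21 and 2 of 9 at PWD28, and 1 was higher on each day. Pi16, a marker of early fascial fibroblasts and adipocyte progenitors, averaged 1837 CPM at PWD0 and 7.30, 33.9 and 33.7 CPM on the 3 wound days, with log2 fold changes of -7.76 ± 0.60, -5.87 ± 0.44 and -6.02 ± 0.55 (FDR 0.000410, 0.000223 and 0.00225). The riser, named after its values were seen, was Pdgfra, a receptor gene of fibroblasts and progenitors. It read 55.9 and 75.8 CPM at PWD0 and 289 CPM at PWD14, with log2 fold changes of 2.37 ± 0.33, 2.34 ± 0.29 and 1.68 ± 0.33 on the 3 wound days (FDR 0.00269, 0.00130 and 0.0273).

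**Figure D3:**
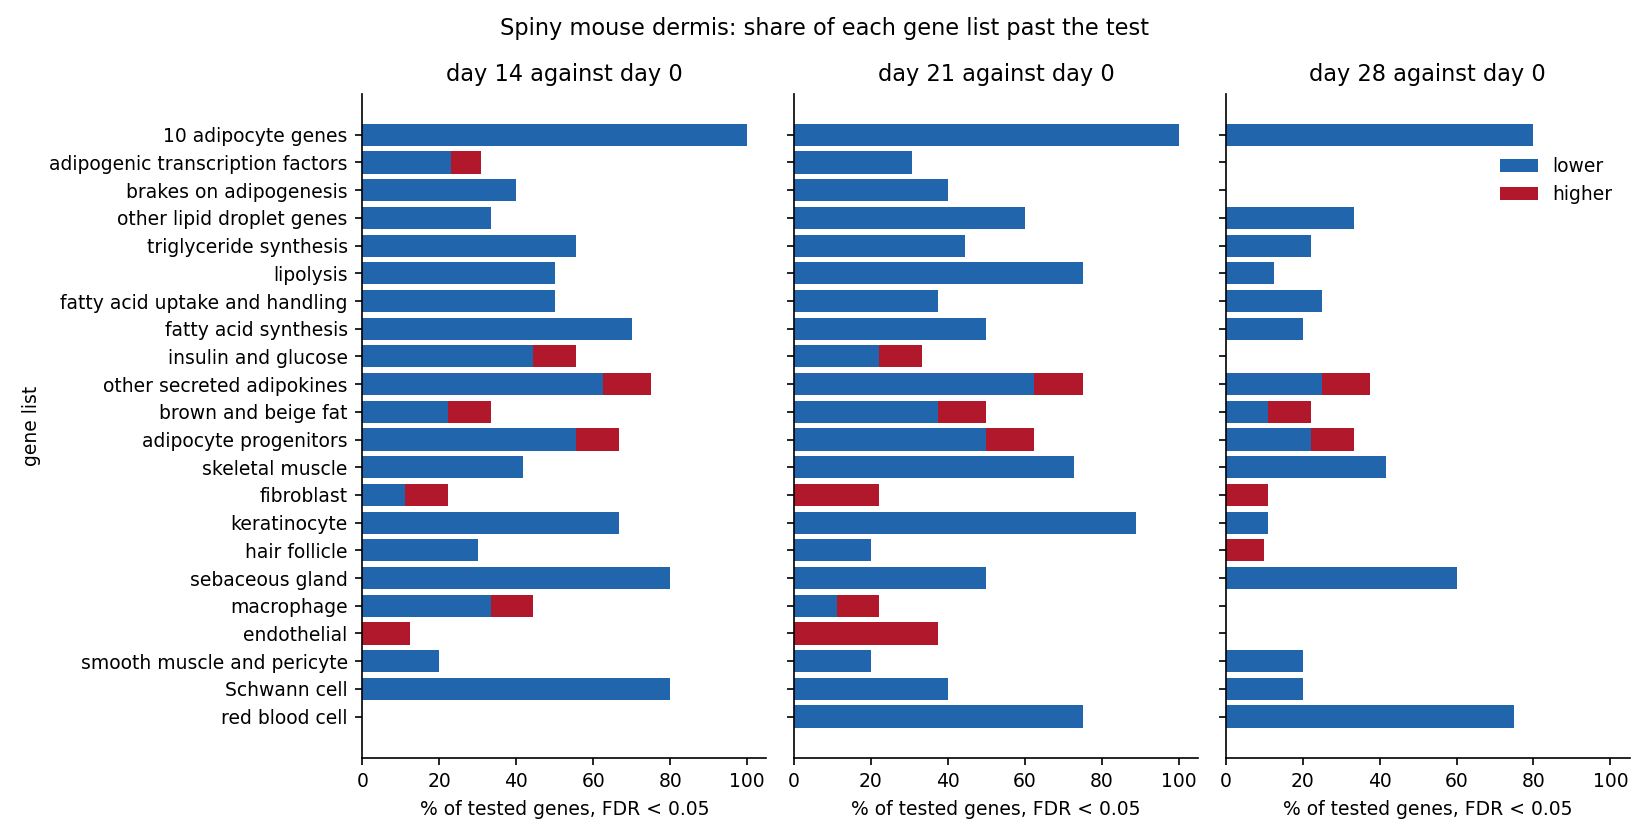
Share of the tested genes of each list that was lower (blue) or higher (red) than PWD0 with an FDR under 0.05 in spiny mouse dermis, for the 10 adipocyte genes, 11 pathway lists and 10 lists of other cell types. The 10 adipocyte genes include Lep and Retn, and at PWD21 Adipoq, which could only come out lower. The length of their bar is therefore not ranked against those of the other lists. The sebaceous, keratinocyte and skeletal muscle lists are lower in part.

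Markers of other cells moved as well. Skeletal muscle markers (a thin sheet of muscle lies under mouse skin) were lower for 5 of 12 at PWD14, 8 of 11 at PWD21 and 5 of 12 at PWD28, and their summed level was 252 to 536.4 CPM at PWD0, 160 CPM at PWD14, 118 to 153 CPM at PWD21 and 108 CPM at PWD28. Sebaceous gland markers were lower for 8, 5 and 6 of 10, with sums of 1700 to 2506 CPM at PWD0 and 33.1, 297 to 402 and 206 CPM after wounding. Keratinocyte markers were lower for 6, 8 and 1 of 9, with sums of 5717 to 6930 CPM at PWD0 and 1730, 638 to 1108 and 3078 CPM afterwards. Their part in the levels of the 10 genes was not tested. All 12 muscle, all 9 keratinocyte and at least 9 of 10 sebaceous markers were over 3 counts in each PWD0 library, and 4 of the sebaceous markers were at 0 at PWD14.

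Schwann cell markers were lower for 4, 2 and 1 of 5, and red blood cell markers for none, 3 and 3 of 4. Of 10 hair follicle markers, 3 were lower at PWD14, 2 at PWD21 and none at PWD28, where 1 was higher and the sum stood at 35898 CPM against 261 to 5362 CPM at PWD0. Of 9 macrophage markers, 3 were lower and 1 higher at PWD14, 1 each at PWD21 and none at PWD28. Fibroblast markers were lower for 1 and higher for 1 of 9 at PWD14, higher for 2 at PWD21 and for 1 at PWD28, and endothelial markers were higher for 1, 3 and none of 8. Smooth muscle and pericyte markers were lower for 1 of 5 on each day. Fibroblast transcripts thus remained abundant, at 91854 to 150813 CPM in the wounded libraries against 67411 to 99747 CPM at PWD0. CPM are shares of a library, so a larger share of some genes lowers that of others.

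In laboratory mouse dermis at PWD14 the picture was of a wound with almost no transcript of mature adipocytes. Over the 7 restricted genes and 9 libraries, 51 of 63 values were 0 and 10 were over 3 counts. In the margin 8 of 14 values were over 3 counts, in wild-type center 2 of 35, and in KO center none of 14. Lep had no read in any of the 9 libraries. Fibroblast markers were read throughout, with 9 of 9 genes over 3 counts in every library. Skeletal muscle markers were scarce too. Acta1 was at most 1.82 CPM in these libraries, and 3 of 12 muscle markers had enough counts to be tested in center against margin. There was no library of unwounded mouse dermis, so a loss on wounding was not tested.

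**Figure D4:**
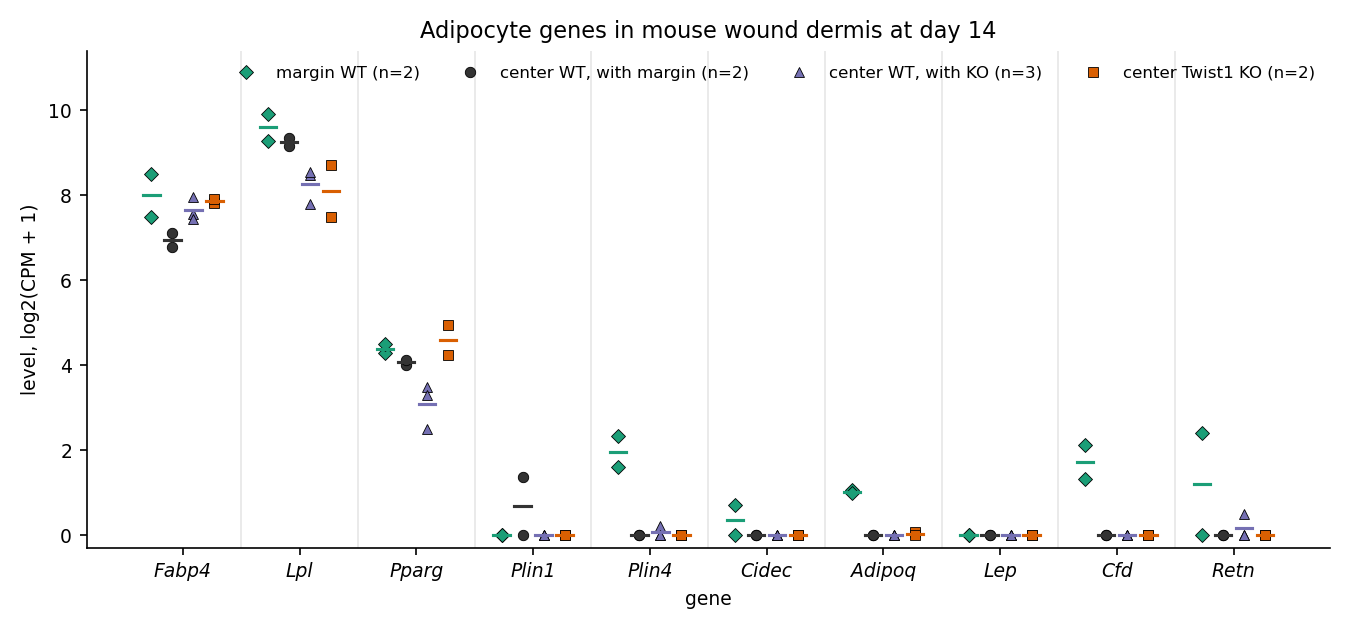
Level of the 10 genes in the 9 laboratory mouse dermis libraries at PWD14 as log2(CPM + 1); each point is 1 library, and short bars are means of log2 values of the wild-type margin, the 2 wild-type centers compared with it, the 3 compared with KO, and the KO center. Fabp4, Lpl and Pparg are read in all 9 libraries, and of the other 7 genes most values above 0 are from the margin.

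Wound center and margin were compared in the 2 center libraries that the study set against its 2 margin libraries. Plin4 read 2.02 and 4.01 CPM at the margin, Cfd 1.51 and 3.38 CPM and Adipoq 1.08 and 0.991 CPM, and all 3 had no read in either center library. Against the largest per-library floor the center was at least 19.5-fold lower for Plin4, 15.8-fold for Cfd and 6.69-fold for Adipoq, with FDRs of 0.225, 0.232 and 0.243. Cidec (0.646 and 0 CPM) and Retn (4.26 and 0 CPM) were read in margin replicate 1 alone, with 15 and 99 counts. Plin1 was the exception. It had no read at the margin and 35 counts (1.59 CPM) in center replicate 1. Cidec, Retn and Plin1, each read in 1 of the 4 libraries, and Lep, read in none, did not pass the filter on low counts and were not tested.

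The 3 genes that are not restricted to fat were abundant on both sides. Fabp4 read 362 and 178.5 CPM at the margin and 137 and 109 CPM at the center. Its groups did not overlap, and the log2 fold change was -1.06 ± 0.32 with an unadjusted p of 0.00728 and an FDR of 0.182 by edgeR's quasi-likelihood test. Lpl read 957 and 624 CPM at the margin and 650.2 and 569.9 CPM at the center, and the groups overlapped (log2 -0.29 ± 0.24, FDR 0.633). Pparg read 18.4 and 21.6 CPM at the margin and 15.0 and 16.5 CPM at the center (log2 -0.25 ± 0.43, FDR 0.846).

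None of the 6 tested genes thus passed an FDR of 0.05, while 0.85% of all 14698 tested genes did, and 4 of the 6 had an unadjusted p under 0.05, beside 15.8% of all. Lower in both center libraries than in both margin libraries were 5 of the 6, beside 30.1% of all. Plin4, Cfd and Adipoq, which are 3 of these 5, entered the test only through their margin reads and so had to come out lower, and nothing is read from these counts. DESeq2 called 3, which were Fabp4 (log2 -1.05, FDR 0.0483), Plin4 (FDR 0.0134) and Cfd (FDR 0.0365). There too Plin4 and Cfd could only come out lower. Margin replicate 1 carried much of the difference in Fabp4, whose log2 fold change was -0.40 without it, and it was -0.50 with all 5 wild-type center libraries.

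Of the pathway genes in center against margin, 5 of the 11 lists' genes passed the FDR, where 0.735% of all genes were lower and 0.116% higher. Scd1 and Elovl6, which desaturate and elongate fatty acids, were lower at the center (26.4 against 274 CPM, log2 -3.30 ± 0.41, FDR 0.00420, and 7.77 against 104.8 CPM, log2 -3.69 ± 0.61, FDR 0.0181). Gata3 (1.29 against 25.4 CPM, FDR 0.0484) and the progenitor marker Cd24a (9.85 against 50.2 CPM, FDR 0.0310) were lower as well, and Apln was higher (97.6 against 40.7 CPM, FDR 0.0467). The lists otherwise had no call, as for Ebf1 (66.7 and 86.5 CPM), Cav1 (976 and 955), Agpat2 (33.9 and 23.8), Mgll (41.9 and 75.6), Cd36 (196 and 152), Adipor1 (162 and 171) and Tmem26 (128 and 132 CPM). Gene lists of skin appendages and nerve moved with the region, as 7 of 10 hair follicle, 4 of 9 keratinocyte, 1 of 8 sebaceous and 2 of 5 Schwann cell markers were lower at the center. Summed hair follicle markers were 845 to 865 CPM at the margin and 0 to 10.2 CPM over all 5 wild-type centers, and sebaceous markers 297 to 441 and 60.0 to 128 CPM, and their part in the levels of the 10 genes was not tested. None of 9 fibroblast, 9 macrophage, 8 endothelial, 5 smooth muscle, 3 skeletal muscle or 4 red blood cell markers tested was called.

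KO center dermis was compared with the 3 other wild-type centers. Twist1 itself read 73.4 and 44.0 CPM in KO and 57.7, 36.3 and 104.6 CPM in those wild types, but K14-Cre deletes it in keratinocytes, so its level in dermis does not check the labels. Of the 10 adipocyte genes only Fabp4, Lpl and Pparg could be tested. The rest had no read in KO except for 1 count of Adipoq in replicate 1, and in these wild types only 3 counts of Plin4 and 8 of Retn in replicate 4.

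Pparg was the gene with the widest gap. It read 17.9 and 29.9 CPM in KO and 4.61, 10.3 and 8.77 CPM in wild type. Both KO values also lay above the 2 wild-type centers of the margin comparison, of which the higher was 16.5 CPM. The log2 fold change was 1.62 ± 0.57, with an unadjusted p of 0.0211 and an FDR of 0.361 by edgeR's quasi-likelihood test. DESeq2 gave an FDR of 0.04998, at the threshold, and all 5 wild types gave a log2 fold change of 1.16 (FDR 0.419). With 1 library left out the FDR ran from 0.0328 without KO replicate 1 (log2 1.91), where the wild types alone set the spread, to 0.841 without KO replicate 2.

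Fabp4 read 223 and 241 CPM in KO and 189, 246 and 173 CPM in wild type, and Lpl 417 and 179 CPM in KO and 222, 355 and 372 CPM in wild type. Both overlapped (log2 0.20 ± 0.23, FDR 0.732, and -0.07 ± 0.39, FDR 0.9502). Thus 0 of 3 genes passed the FDR, beside 0.0565% of all 14163 tested genes, and 1 of 3 had an unadjusted p under 0.05, beside 11.5%. No gene of the 11 pathway lists passed. As group means, their most abundant or leading genes included Rxra, the partner of PPARγ (100 CPM in KO and 92.9 CPM in wild type). Others were Dgat2 (53.0 and 4.27 CPM), Abhd5 (95.02 and 50.6 CPM) and Pdgfra (261 and 527 CPM). The 2 KO libraries differed widely. Pdgfra read 376 and 147 CPM in them, and the summed triglyceride synthesis genes, Dgat2 among them, ranged from 85.7 to 228 CPM.

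KO replicate 2 stood apart by its keratinocyte markers, 8 of 9 over 3 counts as in replicate 1, but with a sum of 33740 CPM against 985 CPM in replicate 1 and 9.82 to 606 CPM in the 5 wild types. That replicate also had the higher Pparg value. Without it the log2 fold change of Pparg was 1.26. In mouse epidermis itself Pparg was at most 0.208 CPM in the 4 libraries. KO replicate 2 also held the sebaceous marker Awat1 (7.56 CPM) and Cidea (11.3 CPM), which both had 0 counts in KO replicate 1. The part of keratinocyte or sebocyte RNA in the Pparg level was not tested.

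Fabp4 and Lpl were the only 2 of the 10 genes well read in mouse epidermis, and there Fabp4 had the reverse pattern. Fabp4 read 430.3 and 554 CPM in epidermis of the wound center and 66.9 and 35.5 CPM at its margin. The difference was a log2 fold change of 3.16 ± 0.41 (FDR 0.0394), where 0.882% of 14165 tested genes were higher with an FDR under 0.05. Lpl was low, at 9.29 and 8.77 CPM against 3.20 and 3.83 CPM (log2 1.25 ± 0.34, FDR 0.130). The 7 restricted genes had no read in any of the 4 epidermis libraries. Markers of other cells were higher at the center too. Summed endothelial markers were 28.8 to 39.4 CPM at the center, with 8 of 8 over 3 counts, and 1.62 to 7.09 CPM at the margin, with 4 to 6 of 8 (median log2 fold change 3.61, 8 of 8 positive, 7 with an unadjusted p under 0.05, 0 with an FDR under 0.05 by edgeR's quasi-likelihood test). Summed fibroblast markers were 4187 to 5050 CPM and 663 to 1972 CPM, with 9 of 9 over 3 counts in each library (median log2 1.37, 8 of 9 positive). The part of these cells in the Fabp4 level was not tested.

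The difference between the layers was tested as an interaction term over the 8 libraries. The center-to-margin change of Fabp4 was lower in dermis than in epidermis by a log2 of -4.36 ± 0.58 (FDR 0.00338), where 3.34% of 15531 tested genes were lower and 0.135% higher. For Lpl the difference was -1.68 ± 0.42 (FDR 0.0537, and 0.00723 by DESeq2), and for Pparg 1.02 ± 1.56 (FDR 0.832).

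Spiny mouse epidermis also held Fabp4, far above the other 9 genes after wounding. It read 27.9 CPM at PWD0, 6302 and 5159 CPM at PWD14, 1347 and 1049.8 CPM at PWD21 and 89.8 CPM at PWD28. Fabp4 was thus highest in epidermis at PWD14 and still above its PWD0 value at PWD28. The other genes were low in spiny mouse epidermis, the highest being Pparg with 19.4 CPM, Plin4 with 12.6 CPM and Cidec with 9.82 CPM, all at PWD0. For Plin4 that was above both PWD0 dermis libraries (8.11 and 11.02 CPM). At PWD21, where both layers had 2 libraries, Fabp4 was lower in dermis than in epidermis by a log2 fold change of -2.86 ± 0.38 (FDR 0.000462), while Pparg (1.99 ± 0.26, FDR 0.000446), Lpl (3.33 ± 0.34, FDR 0.000130) and Cfd (6.55 ± 0.68, FDR 0.000134) were higher, and Plin1, with no read in epidermis at that day, was at least 5.16-fold higher (FDR 0.00299). That made 4 of 7 tested genes higher, beside 33.5% of 14966 genes, and 1 of 7 lower, beside 29.4%. Plin1 and Cfd, the latter with at most 8 counts in PWD21 epidermis, entered the test only through dermis. They could only come out higher, and nothing is read from the count of higher genes. Plin4 (log2 0.73, FDR 0.151) and Cidec (log2 -0.66, FDR 0.238) did not pass.

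Fabp4 lies at chr3:10204342-10208616 on GRCm38, near its paralog Fabp5 at chr3:10012585-10016610, a fatty acid carrier of keratinocytes. In mouse epidermis Fabp5 was the more abundant, with 5283 and 5488 CPM at the center and 2177 and 2187 CPM at the margin, so that Fabp4 had 0.0815 and 0.101 counts per count of Fabp5 at the center and 0.0307 and 0.0162 at the margin. In spiny mouse epidermis the ratio was turned round, with 2.36 before wounding, then 51.0 and 41.1 at PWD14, 23.9 and 18.8 at PWD21, and finally 6.89. In spiny mouse dermis it was 52.4 and 50.0 at PWD0 and between 36.5 and 154 after wounding. Whether spiny mouse Fabp5 reads were counted on mouse Fabp4 was not tested, and the spiny mouse Fabp4 values are uncertain in that respect.

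**Figure D5:**
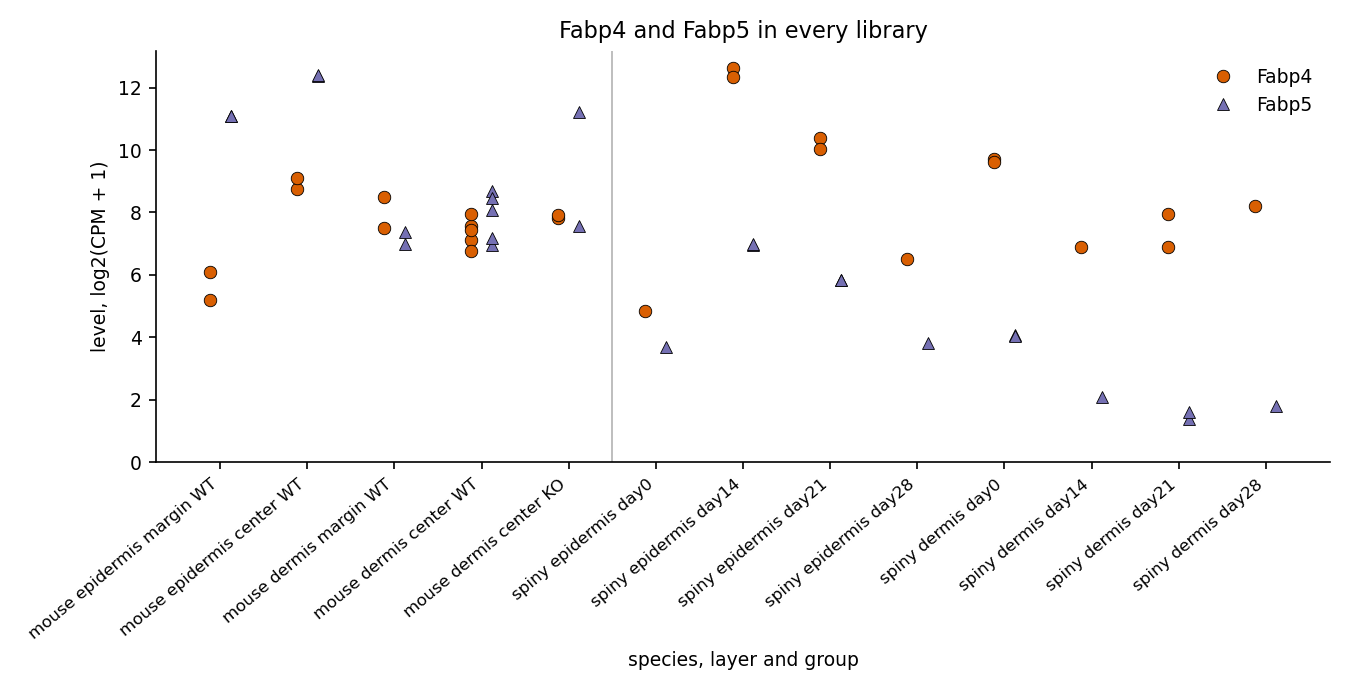
Fabp4 (circles) and Fabp5 (triangles) in each of the 25 libraries as log2(CPM + 1), by species, layer and group. Fabp5 lies above Fabp4 in mouse epidermis and below it in all 12 spiny mouse libraries.

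The genes whose levels ran most closely with the mean log2(CPM + 1) of the 10 genes were found over each species' dermis libraries, which share depth and composition with the 10 genes. Over the 6 spiny mouse libraries they were Fhl1 (Pearson r = 0.999), Plpp1 (0.998), Adh1 (0.998), Car3 (0.997) and 4930503H13Rik (0.997). Car3, a carbonic anhydrase gene abundant in fat and muscle, ranged from 10.5 to 1364 CPM. The 6 libraries form 2 sets, unwounded and wounded, which such a coefficient mostly reflects, and none of these 5 were among the 5 by Spearman's rank. Over the 9 mouse libraries they were Mbp, a myelin gene (0.963), Ntrk3 (0.959), and the genes Gm11567, Gm11565 and Gm11568 (0.958 each), of which 1 was among the 5 by rank. Ntrk3 and the Gm genes were at 0 in some libraries. The mean of the 10 genes was 2.98 and 2.67 at the margin and 1.79 to 2.18 in the centers. These coefficients thus largely reflect margin against center.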

How the data were processed

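The authors deposited, for each of the 25 libraries, raw read counts per gene symbol from HTSeq. Per the labels, reads had been aligned with STAR 2.4.1d to mm10 and counted with HTSeq 0.6.0. By the study's own list of libraries, mouse dermis was sequenced single-end and mouse epidermis paired-end, both with strand kept. The spiny mouse was sequenced single-end without strand. The 5 summary lines of each file were left out. CPM used all 24500 gene rows, 23535 of which were found in the RefSeq table. Lengths for levels per kilobase were medians of principal transcripts.

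Tests used edgeR 4.0.16 in R 4.3.3 (TMM, filterByExpr, prior count 0.125, quasi-likelihood, Benjamini-Hochberg over all tested genes), and the SE was derived from the F statistic (size of the log2 value over the root of F). PWD14 and PWD28 were fitted with all 6 spiny mouse dermis libraries, and PWD21 with those of PWD0 and PWD21. The script was tested on simulated counts, with known changes placed only on well-read genes. Their spread was smaller than that fitted in the mouse dermis comparisons, and genes near 0 were not covered. Alternatives were DESeq2 1.42.0, RLE, no filter, at least 10 counts in every library, library size alone, the older edgeR quasi-likelihood method, all 5 wild-type centers, and each library left out. The division of the wild-type centers follows the study.

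The 10 genes and all gene lists were chosen with earlier results of these data known. Named were the 10 genes, up to 2 genes per pathway list and comparison with the smallest FDR under 0.05 (or the most abundant gene of a list with none), and the 5 genes most like the 10; not all of these are given.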

Additional observations from a re-analysis of the deposited data

Results flagged for a closer look

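Among the 5 wild-type wound center dermis libraries of the laboratory mouse, 1 library stood far from the other 4 for each of 3 genes. Plin1 read 1.59 CPM in replicate 1 and 0 in the others, Plin4 read 0.151 CPM (3 counts) in replicate 4 and 0 in the others, and Retn read 0.403 CPM (8 counts) in replicate 4 and 0 in the others. Chance marks about 1 in 20 groups in this way, and a single library with reads among 4 at 0 is always marked.

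The center-to-margin change of Fabp4 differed between the layers, at a log2 of -4.36 for dermis against epidermis in the interaction term.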

How the results depend on the processing

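Over 449 alternative fits of single genes, 420 kept the direction and the side of an FDR of 0.05, 15 gained the call, 11 lost it and 3 turned, all of Lpl: to 0.10 in center against margin without margin replicate 1 (range -0.60 to 0.10 with 1 library out), and in KO against wild type to 0.08 without wild-type replicate 5 and 0.44 without KO replicate 2 (range -0.87 to 0.44). Of the 10 genes, DESeq2 called 3 in center against margin, 1 in KO against wild type and 2 in the interaction. In center against margin 2 of its calls, Plin4 and Cfd, could only come out lower. With at least 10 counts in every library only 5 genes were tested and called at PWD14 and PWD28, and 3 called of 5 tested in PWD21 dermis against epidermis, since the filter removes genes near 0. Leaving out 1 library gave 0 to 1 calls for KO, 6 to 10 at PWD21, 9 to 10 at PWD14, 7 to 10 at PWD28, 1 to 2 in mouse epidermis and 5 to 6 in PWD21 dermis against epidermis. TMM scaling moved the summed level of the 10 genes from 145 to 173 CPM at PWD14 and from 356 to 305 CPM at PWD28.

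Calls over all genes moved more: center against margin from 125 to 738 (DESeq2), 54 (older edgeR method), 323 (all wild types) and 19 to 241 (1 library out); KO from 8 to 787, 2, 190 and 1 to 3353, and 0 with at least 10 counts, where 1273 genes had an unadjusted p under 0.05; PWD21 from 3792 to 1311 to 5118 (1 library out), PWD28 from 814 to 1715 (DESeq2) and 452 to 3192, PWD14 from 2838 to 1888 to 4219, mouse epidermis from 176 to 1511 (DESeq2) and 70 to 7405, and the interaction from 540 to 1125 (DESeq2), 204 (at least 10 counts) and 167 to 1343. Except for the filter, the cause was not tested. PWD14 and PWD28 without their only library could not be fitted. No paired analysis was possible because the replicate numbers follow accession order. Depth limits the unwounded spiny mouse libraries most, where 3 counts were worth up to 0.529 CPM.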
